A study of Homo sapiens with 4 samples.

Results

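The integrins and laminins are the cell-surface receptors and the basement membrane proteins through which a cell holds on to its matrix. The members were the genes of the count table whose symbol is on a list of 30, made up of 12 integrin alpha chains, 8 integrin beta chains and 10 laminin chains. All 30 were found among 19381 genes. RNA sequencing gave their transcript levels in SK-LMS-1, a human leiomyosarcoma (smooth muscle tumour) line that the labels call uterine. 2 libraries hold RNA of cells that had received 50 µM 2-D08 for 48 h, and 2 hold RNA of untreated cells of the same line, for which the labels state no vehicle. The compound, 2-D08, belongs to the flavones and blocks the transfer of SUMO, a small protein modifier, to its substrates. Whether replicate libraries represent independent cultures is not stated in the labels, and the p-values therefore reflect the scatter among these 4 libraries alone, which may be technical.

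An integrin is a pair of an alpha and a beta chain, and the pairing sets which matrix protein the receptor binds. Laminins are trimers of an alpha, a beta and a gamma chain that are laid down in basement membranes, the sheets around muscle cells, nerves and vessels and under epithelia. Smooth muscle cells use integrins to couple their contractile filaments to this matrix. Inside the cell, talin, kindlin and further adapters link the tails of the beta chains to actin.

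Library totals were 14796702 and 31300635 counts with 2-D08 and 29586475 and 16628710 counts without. Treated replicate 2 and untreated replicate 1 stood apart, since 88.8% and 89% of their nonzero counts were even numbers, against 47.9% and 48.4% in treated replicate 1 and untreated replicate 2. With the counts of these libraries halved, all 12 calls among the members held. Levels are given as CPM, the count of a gene relative to its library's total after TMM scaling, and gene-to-gene comparisons use the deposited TPM, which is scaled for transcript length. Of the smooth muscle markers, desmin (DES) had 0 counts in every library, MYOCD had 2 and 2 counts with 2-D08 and 0 and 0 without, and MYH11 lay at 0.664 and 0.778 CPM with 2-D08 and 0.472 and 0.726 CPM without. ACTA2, smooth muscle actin, had 3.06 and 4.34 CPM with 2-D08 and 6.64 and 4.36 CPM without (chosen for display after their values were seen). Other markers of the same list were well detected, among them CALD1 at a mean of 484 CPM with 2-D08 and 661 CPM without and MYLK at 128 CPM with 2-D08 and 330 CPM without (n = 2 per group).

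More of these genes were lower than higher in cells exposed to 2-D08. Of 23 members with enough counts to be tested, 3 were higher and 9 lower in treated than in untreated cells, and 11 did not pass (edgeR quasi-likelihood test, two-sided, Benjamini-Hochberg adjusted p under 0.05 over all genes). Over all 12906 genes tested, 33.9% changed, 17.1% higher and 16.9% lower. The genes that rose were ITGA2, ITGB3 and LAMB3. Those that fell were ITGA3, ITGA5, ITGB1, ITGB8, LAMA3, LAMA4, LAMA5, LAMB2 and LAMC1. 1 member, ITGB8, changed by at least 2-fold, as did 6.31% of all genes tested. The CPM values of treated and untreated libraries did not overlap for 17 of the 23, which was also so for 67.5% of all genes tested. Of the 12 calls, those of ITGA3, ITGB3, ITGB8, LAMA3 and LAMA4 held in all 15 other settings tried. In bulk RNA, fewer cells that express a gene and less RNA per cell cannot be told apart.

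**Figure D1:**
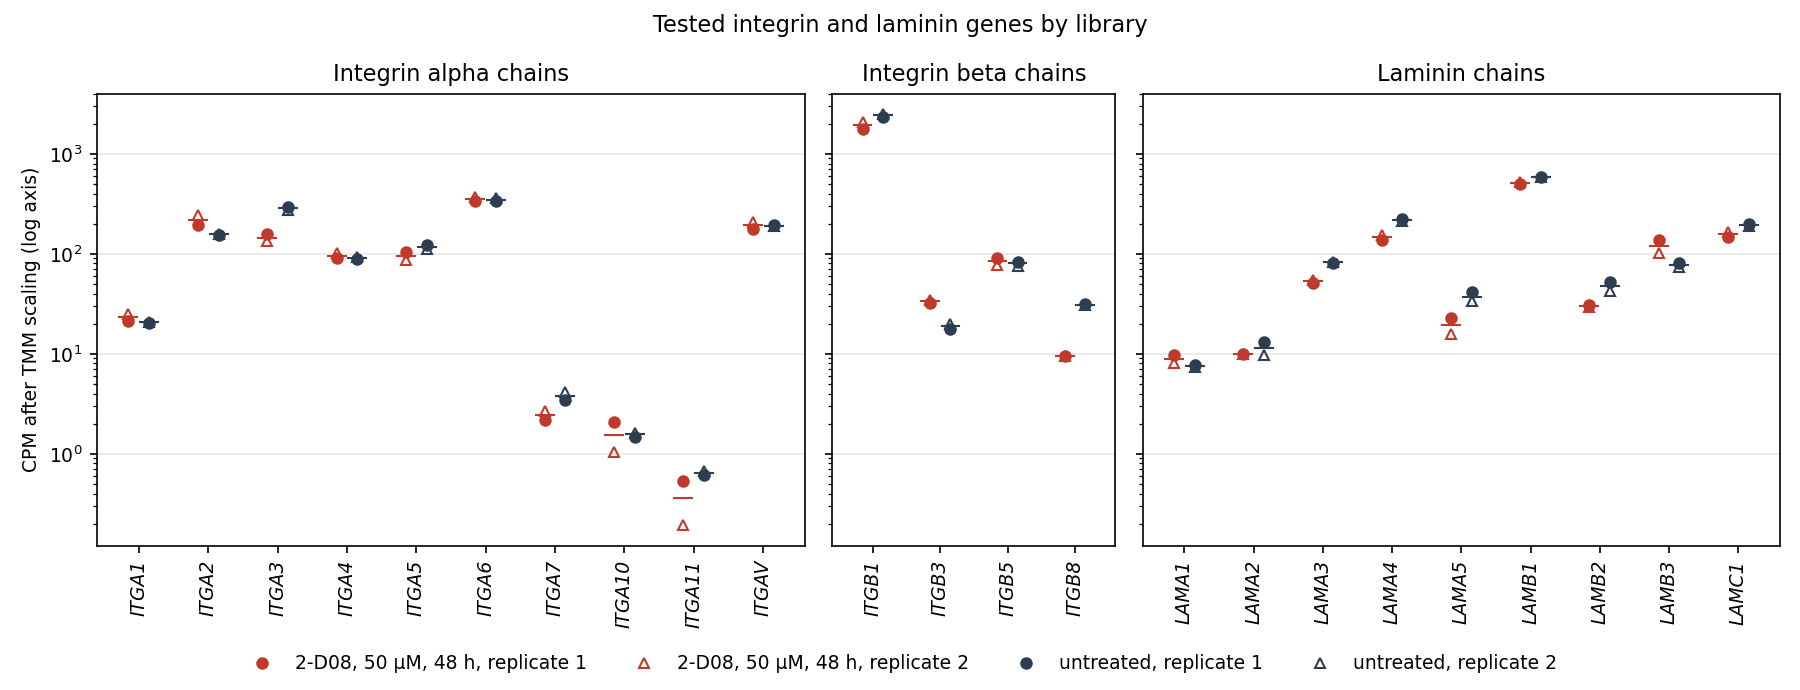
CPM after TMM scaling (log axis) of the 23 tested members in each library, with 2-D08 libraries in red to the left of untreated ones in dark blue, circles for replicate 1, triangles for replicate 2 and a bar at each group mean. ITGB8, ITGA3 and the laminin alpha chains LAMA3, LAMA4 and LAMA5 lie lower with 2-D08, and ITGB3, ITGA2 and LAMB3 lie higher.

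The promoters of 5 of the changed genes are shown at a RefSeq start of each, with genes of opposite direction side by side. They are the 250 bases before the start site in RefSeq (GRCh38.p14), read 5′ to 3′ on the strand of the gene. Capitals mark matches, on either strand, to the AP-1 site TGANTCA or the GC box GGGCGG, the motif of SP1-type factors. Each of the 5 starts lies inside the GENCODE span of its gene. The LAMA3 window (23872770 to 23873019) lies far inside a gene that begins at 23689443, so it belongs to an internal start. Counts per gene do not show which start was used. For LAMB3, which has several RefSeq starts, the start shown is the one with an AP-1 match.
ITGB8 promoter, chr7:20330650-20330899, plus strand: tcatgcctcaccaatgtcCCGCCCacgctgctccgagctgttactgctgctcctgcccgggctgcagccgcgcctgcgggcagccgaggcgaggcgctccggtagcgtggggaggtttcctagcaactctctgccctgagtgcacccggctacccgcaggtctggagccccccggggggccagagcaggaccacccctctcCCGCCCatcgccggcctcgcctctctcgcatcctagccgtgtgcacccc
LAMA4 promoter, chr6:112254568-112254817, minus strand: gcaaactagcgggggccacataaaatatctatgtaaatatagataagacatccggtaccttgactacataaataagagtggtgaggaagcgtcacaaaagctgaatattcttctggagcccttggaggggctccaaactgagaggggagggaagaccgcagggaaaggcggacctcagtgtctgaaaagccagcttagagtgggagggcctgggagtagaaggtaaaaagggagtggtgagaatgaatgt
LAMA3 promoter, chr18:23872770-23873019, plus strand: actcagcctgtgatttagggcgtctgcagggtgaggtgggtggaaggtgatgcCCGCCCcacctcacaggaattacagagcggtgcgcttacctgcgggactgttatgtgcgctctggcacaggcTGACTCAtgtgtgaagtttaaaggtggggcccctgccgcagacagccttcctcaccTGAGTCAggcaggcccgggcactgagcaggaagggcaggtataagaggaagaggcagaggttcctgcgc
LAMB3 promoter, chr1:209651375-209651624, minus strand: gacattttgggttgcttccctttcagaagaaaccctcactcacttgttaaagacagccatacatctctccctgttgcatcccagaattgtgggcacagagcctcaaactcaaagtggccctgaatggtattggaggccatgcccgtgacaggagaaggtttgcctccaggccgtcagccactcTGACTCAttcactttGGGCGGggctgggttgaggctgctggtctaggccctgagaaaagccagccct
ITGA2 promoter, chr5:52989102-52989351, plus strand: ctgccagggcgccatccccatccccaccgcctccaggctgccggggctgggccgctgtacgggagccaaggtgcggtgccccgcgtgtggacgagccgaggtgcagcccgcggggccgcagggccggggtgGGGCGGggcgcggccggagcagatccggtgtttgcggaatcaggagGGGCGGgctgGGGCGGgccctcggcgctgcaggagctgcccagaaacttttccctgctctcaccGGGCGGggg
LAMA3 and LAMB3 encode chains that meet in the laminin of the skin basement membrane, and they moved in opposite directions. The window of LAMA3 holds TGANTCA, and so does that of LAMB3, whose start was chosen for this match. The other LAMB3 starts hold no AP-1 match. TGANTCA begins 125 and 69 bases before the start in LAMA3 and 67 bases before it in LAMB3. ITGA2 holds 4 GC boxes and ITGB8 holds 2, whereas the window of LAMA4 holds no match to either motif. Over the 29 RefSeq starts found for 22 of the members, 6.9% held the AP-1 site, 55.2% the GC box and 13.8% the TEAD motif GGAATG, against 6.57%, 42.6% and 11.9% of 35116 promoter windows of the same length. These matches describe letters, and no binding was measured.

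Among the integrin alpha chains, ITGA3 fell, ITGA2 rose, and ITGA6 and ITGAV stayed within the spread of the libraries. Of 10 tested chains 1 was higher and 2 were lower, beside 17.1% higher and 16.9% lower of all genes tested. Their median log2 fold change was -0.03, against -0.003 over all genes tested. ITGA3 (chromosome 17, 50055968 to 50090481, GRCh38) encodes the alpha chain of a main laminin receptor. It had 157 and 134 CPM with 2-D08, against 296 and 272 CPM in untreated cells. Both treated libraries lay far below both untreated ones, and the log2 fold change was -0.97 with an SE of 0.10 (edgeR adjusted p = 1.08e-05). ITGA6, the other abundant laminin-binding alpha chain, had 334 and 367 CPM with 2-D08 and 334 and 361 CPM without, so its groups overlapped (0.01 ± 0.09, edgeR adjusted p = 0.92). ITGA7, the laminin receptor chain of muscle, was scarce at 2.19 and 2.66 CPM with 2-D08 and 3.44 and 4.12 CPM without (-0.61 ± 0.27, edgeR adjusted p = 0.0954). The deposited TPM of ITGA7 did not separate the groups, at 2.41 and 2.56 with 2-D08 and 2.16 and 2.74 without.

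On the TPM scale the leading laminin-binding alpha chain differed between the groups. With 2-D08, ITGA6 stood at 85.8 and 92.5 TPM, above ITGA3 at 59.3 and 49.6 TPM. In untreated cells ITGA3 stood at 112 and 103 TPM, above ITGA6 at 89.4 and 97.2 TPM. ITGA3 thus made up 20.3% and 17% of the summed TPM of the 12 alpha chains with 2-D08, and 31% and 29.8% without. ITGA3, ITGA6 and ITGA7 together reached 148 and 145 TPM with 2-D08 and 203 TPM in each untreated library.

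The collagen-binding chains went the other way or did not pass. ITGA2 (chromosome 5, 52989326 to 53094779), which pairs with ITGB1 as a collagen receptor, had 196 and 243 CPM with 2-D08 and 156 and 158 CPM in untreated cells. Both treated libraries were higher, and they differed from each other more than the untreated ones did (0.49 ± 0.11, edgeR adjusted p = 0.00303). Its log2 fold change was 0.32 without treated replicate 2 and 0.63 without treated replicate 1, and the call was lost with limma on log2(TPM + 1), at an adjusted p of 0.0948. ITGA1, the other collagen receptor chain with sizeable counts, had 21.5 and 25.2 CPM with 2-D08 and 20.4 and 20.9 CPM without (0.18 ± 0.14, edgeR adjusted p = 0.32). Of the 18566 exon bases of ITGA1, 475 are shared with PELO and 571 with the pseudogene AC022133.1, both on the same strand. Its own reads are therefore uncertain at these bases. ITGA10 and ITGA11, 2 further collagen receptor chains, lay between 0.194 and 2.06 CPM in all libraries and did not pass (edgeR adjusted p of 0.897 and 0.257).

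Of the chains that read the RGD motif in fibronectin and vitronectin, ITGA5 fell slightly and ITGAV did not pass. ITGA5 encodes the alpha chain of the classical fibronectin receptor. It had 104 and 86 CPM with 2-D08 and 123 and 111 CPM in untreated cells (-0.31 ± 0.11, edgeR adjusted p = 0.0396). The groups lay next to each other and overlapped in TPM. The call was lost with library size only (edgeR adjusted p = 0.0585). Limma on log2(TPM + 1) and log2(TPM + 0.1) lost it too (adjusted p of 0.296 and 0.293). It was also lost without untreated replicate 1 (-0.23), without untreated replicate 2 (-0.38) and without treated replicate 2 (-0.18). ITGAV, whose product pairs with several beta chains, had 178 and 209 CPM with 2-D08 and 194 and 188 CPM without (0.02 ± 0.10, edgeR adjusted p = 0.871). ITGA4, the chain of a receptor for VCAM1 and fibronectin, had 90 and 102 CPM with 2-D08 and 87.9 and 93.6 CPM without (0.09 ± 0.10, edgeR adjusted p = 0.522). ITGA8 and ITGA9 were not tested, with 2 to 6 counts per treated library and 0 to 2 per untreated one.

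In order of TPM with 2-D08, ITGA6 led, then ITGA3, and ITGA5 (46.4 and 34.6), ITGAV (36 and 43.9) and ITGA2 (33.7 and 39.5) overlapped each other. In untreated cells ITGA5 (52.9 and 44.9) lay just above ITGAV (44.2 and 40.9), and ITGA2 (28.6 and 27.1) lay below both. ITGA4 followed at 20.4 and 22.1 TPM with 2-D08 and 23.3 and 22.5 TPM without, and ITGA1 at 7.2 and 6.38 TPM with 2-D08 and 6.46 and 6.53 TPM without. The remaining alpha chains stayed under 3 TPM in every library.

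Among the classes of members, the integrin beta chains had the widest range of log2 fold changes (-1.71 to 0.84), over only 4 tested chains. ITGB3 rose, ITGB8 and ITGB1 fell and ITGB5 did not pass, beside 17.1% higher and 16.9% lower of all genes tested. The median log2 fold change was -0.12. ITGB8 (chromosome 7, 20330702 to 20415754) encodes a partner of the alphaV chain known for activating latent TGF-beta. It had 9.44 and 9.59 CPM with 2-D08 and 31.3 and 30.9 CPM in untreated cells. The replicates of each group nearly coincided and the groups stood wide apart, 3.26-fold lower with 2-D08 (log2 fold change -1.71 ± 0.14, edgeR adjusted p = 1.08e-06). ITGB3 (chromosome 17, 47253846 to 47311816), which pairs with alphaV as a vitronectin receptor, had 32.4 and 34.4 CPM with 2-D08 and 17.6 and 19.9 CPM in untreated cells. Both treated libraries were higher, by 1.79-fold (0.84 ± 0.13, edgeR adjusted p = 0.000232). In GENCODE, 2266 of the 4394 exon bases of ITGB3 are shared with the gene AC068234.1 on the same strand, so reads there could have been split or dropped in counting.

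Within the alphaV partners other than ITGB1, the order of ITGB3 and ITGB8 differed between the groups. With 2-D08, ITGB3 had 7.38 and 7.4 TPM and ITGB8 had 1.39 and 1.38 TPM. In untreated cells ITGB3 had 4.08 and 4.47 TPM and ITGB8 had 5.05 and 4.66 TPM, with ITGB8 slightly above ITGB3. Reads of ITGB3 split or dropped at its shared exon bases could alter this order. ITGB5, another vitronectin receptor chain, was the most abundant of these partners at 66.1 and 48.7 TPM with 2-D08 and 49.5 and 43 TPM without. Its counts did not pass the test, at 91.4 and 77.7 CPM with 2-D08 and 83.7 and 76.3 CPM without (0.07 ± 0.11, edgeR adjusted p = 0.621).

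**Figure D2:**
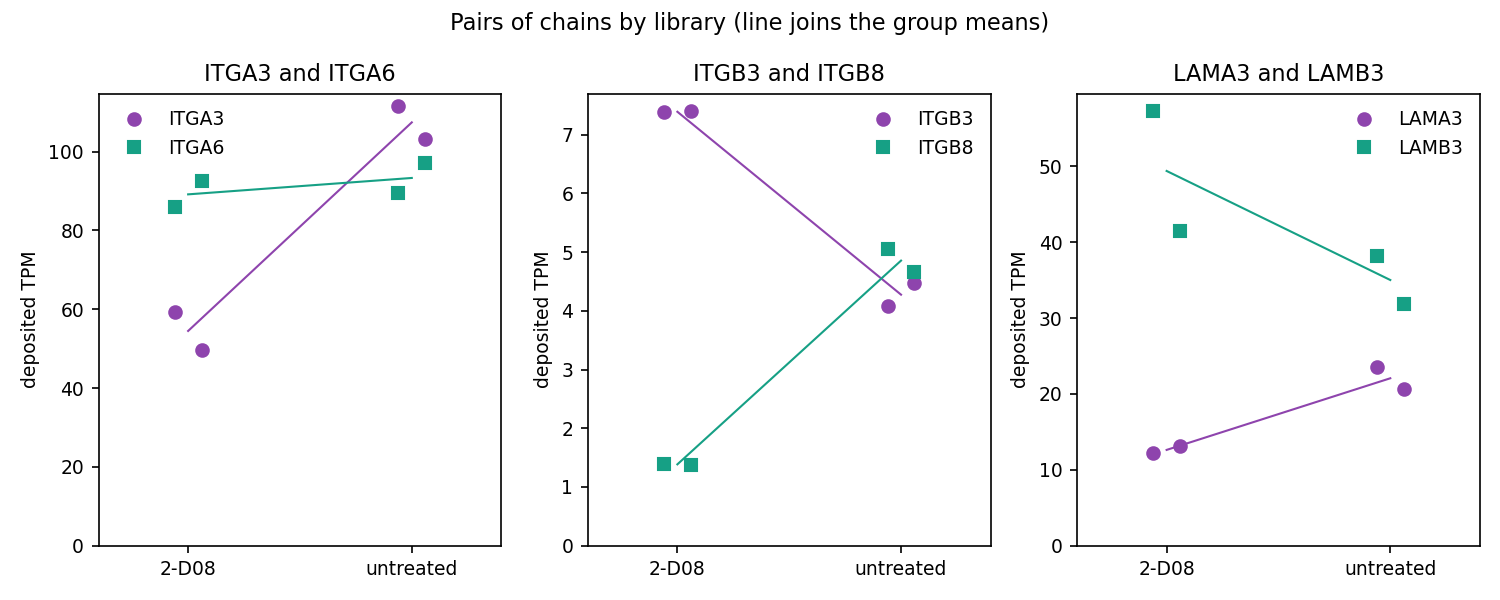
Deposited TPM (linear axis from 0) of 3 pairs of chains, with 2-D08 libraries to the left of untreated ones, 1 point per library (replicate 1 left of replicate 2) and a line between the group means. ITGA6 lies above ITGA3 with 2-D08 and below it in untreated cells, ITGB3 lies far above ITGB8 with 2-D08 and slightly below it in untreated cells, and LAMB3 and LAMA3 lie farther apart with 2-D08.

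ITGB1 (chromosome 10, 32900319 to 33005792), the common partner of most alpha chains, dominated the beta chains. It had 1790 and 2100 CPM with 2-D08 and 2340 and 2500 CPM in untreated cells. The treated libraries were lower and more spread (-0.31 ± 0.10, edgeR adjusted p = 0.02), and the call was lost without untreated replicate 1 (-0.36, edgeR adjusted p = 0.132), without untreated replicate 2 (-0.27, 0.261) and with limma on log2(TPM + 1) (-0.36, 0.0594). Without treated replicate 1 the log2 fold change was -0.21 (edgeR adjusted p = 0.0274). In TPM it reached 657 and 741 with 2-D08 and 884 and 913 without, which was 89.6% and 92.7% of the summed beta chains with 2-D08 and 93.7% and 94.5% without. All 12 alpha chains together came to 292 and 291 TPM with 2-D08 and 360 and 346 TPM without. Total alpha chain and ITGB1 TPM were thus both below the untreated values in each treated library, given here without a test. The TPM of all listed genes summed to 741705 and 716934 with 2-D08 and 761770 and 745964 without, so part of each library's TPM lay outside the table.

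The beta chains of other lineages were near the detection limit. ITGB2 and ITGB7, the beta chains of leukocytes, had 0 to 6 counts, ITGB4, the hemidesmosome chain, had 4 to 10 counts and ITGB6, an epithelial chain that shares 966 exon bases with AC092153.1 on the same strand, had 2 to 10 counts per library. They were not tested. ITGB2 had 0 counts in treated replicate 2, which allows up to 0.0972 CPM there (3 counts, counting error only), and ITGB7 had 0 counts in untreated replicate 1, which allows up to 0.101 CPM. A large part of ITGB7's exons, 1886 bases, overlaps ZNF740 on the opposite strand, and the use of strand in counting is not given in the sources used here, so its few reads cannot be assigned with certainty.

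**Figure D3:**
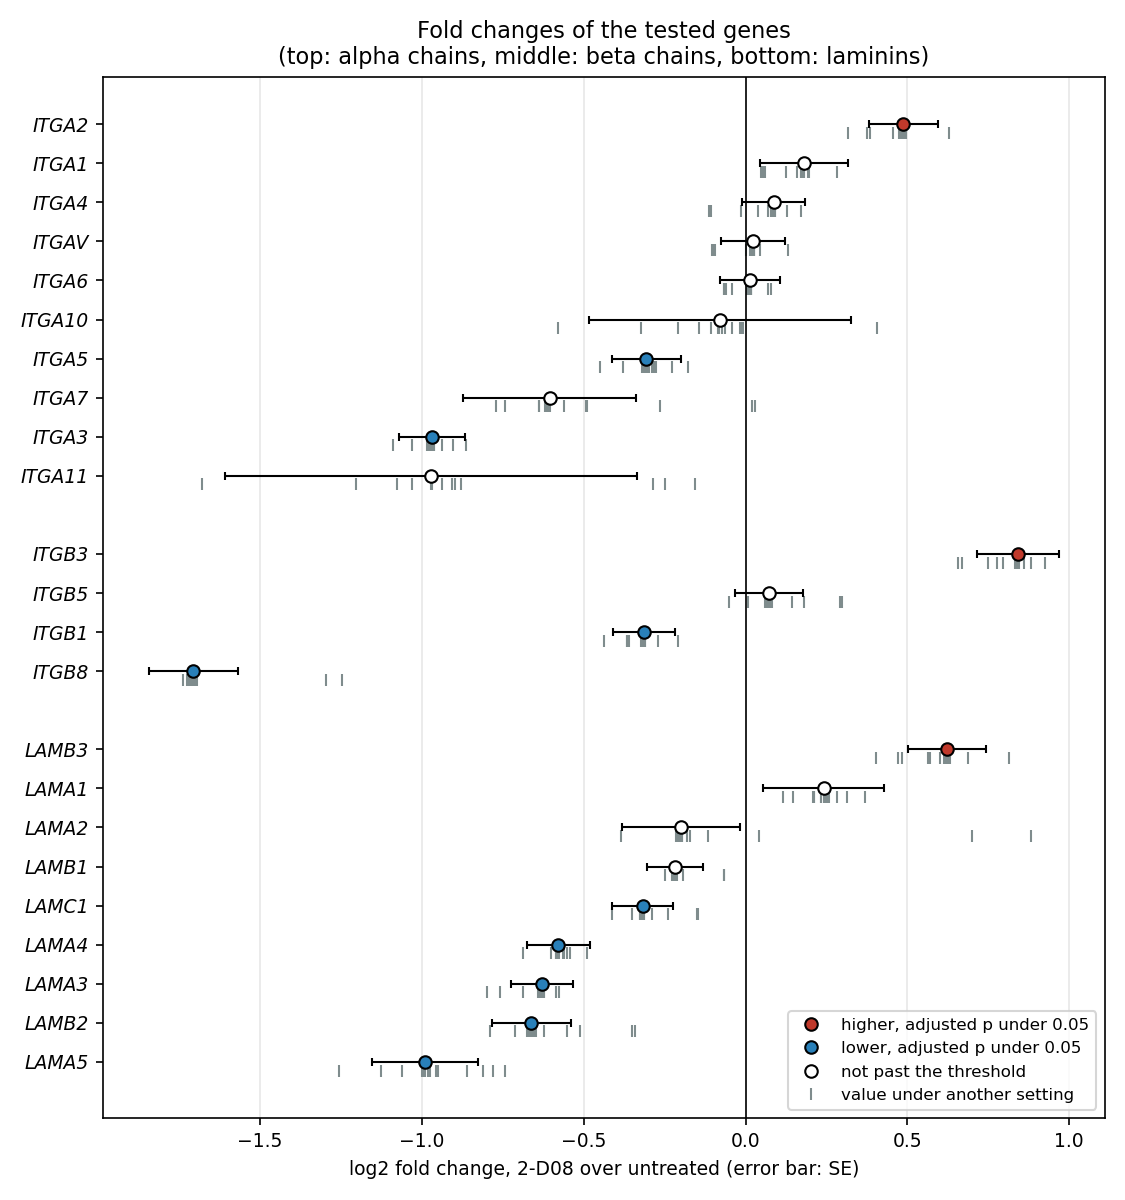
Log2 fold change of 2-D08 over untreated cells for the 23 tested members (point, with SE bar), alpha chains at the top, beta chains in the middle and laminins at the bottom, red for higher, blue for lower and white for not past an adjusted p of 0.05. Grey ticks give the values under the other settings, which keep the sign of all 12 called genes, with ITGB8 lowest at -1.71 and ITGB3 highest at 0.84.

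Most laminin chains that were called were lower, and LAMB3 alone was called higher. Of 9 tested chains 1 was higher and 5 were lower, beside 17.1% higher and 16.9% lower of all genes tested. Their median log2 fold change was -0.32. The alpha chains, which carry the sites bound by integrins, contributed LAMA3, LAMA4 and LAMA5. LAMA4 (chromosome 6, 112108760 to 112254939), the alpha chain typical of mesenchymal cells and vessels, had 136 and 155 CPM with 2-D08 and 221 and 215 CPM in untreated cells. Both treated libraries were clearly lower (-0.58 ± 0.10, edgeR adjusted p = 0.000459). LAMA3 (chromosome 18, 23689443 to 23956222), the alpha chain of the epithelial laminin, had 51.4 and 55 CPM with 2-D08 and 81.8 and 83.1 CPM without. Its replicates lay close together within each group (-0.63 ± 0.10, edgeR adjusted p = 0.000274).

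LAMA5 (chromosome 20, 62307955 to 62367312), a widely expressed alpha chain, had 22.6 and 15.8 CPM with 2-D08 and 41.4 and 33.4 CPM in untreated cells. The groups did not overlap although replicates differed (-0.99 ± 0.16, edgeR adjusted p = 0.000456). The call was lost with limma on log2(TPM + 1), at an adjusted p of 0.0868, and 244 of its exon bases overlap ADRM1 on the opposite strand. LAMA1, an alpha chain of embryonic basement membranes, had 9.77 and 8.17 CPM with 2-D08 and 7.69 and 7.33 CPM without (0.24 ± 0.19, edgeR adjusted p = 0.34), and 1641 of its exon bases overlap AP002409.1 on the opposite strand. LAMA2, the alpha chain of muscle, had 9.97 and 9.98 CPM with 2-D08 and 13 and 9.69 CPM without (-0.20 ± 0.18, edgeR adjusted p = 0.425). The deposited TPM of LAMA2 pointed the other way, at 2.86 and 6.16 with 2-D08 and 2.37 and 2.11 without, so its direction depended on the unit.

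LAMB3 (chromosome 1, 209614870 to 209652466), the beta chain of the epithelial laminin, had 137 and 103 CPM with 2-D08 and 81 and 74.6 CPM in untreated cells. Both treated libraries were higher, with a wide gap between them (0.62 ± 0.12, edgeR adjusted p = 0.00145). Its log2 fold change was 0.40 without treated replicate 1 and 0.81 without treated replicate 2, and limma on log2(TPM + 1) gave an adjusted p of 0.132, which did not pass. In TPM, LAMB3 stood at 57.3 and 41.4 with 2-D08 and 38.2 and 31.8 without, while its alpha partner LAMA3 stood at 12.2 and 13.1 with 2-D08 and 23.5 and 20.7 without. These partners therefore moved apart.

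LAMB2, the beta chain of kidney filters and nerve-muscle junctions, had 31.1 and 29.2 CPM with 2-D08 and 51.9 and 42.9 CPM in untreated cells (-0.66 ± 0.12, edgeR adjusted p = 0.000969). The groups did not overlap, and the call was lost without untreated replicate 1 (-0.51, edgeR adjusted p = 0.0539) and with limma on log2(TPM + 1) (-0.34, 0.144). LAMC1, the gamma chain shared by most laminins, had 147 and 165 CPM with 2-D08 and 199 and 191 CPM in untreated cells (-0.32 ± 0.10, edgeR adjusted p = 0.0186). Without untreated replicate 1, 3 laminins were called lower in place of 5. The LAMC1 call was lost without untreated replicate 1 (-0.29, edgeR adjusted p = 0.267), without untreated replicate 2 (-0.35, 0.132) and with limma on log2(TPM + 1) (-0.15, 0.397). LAMB1, the common beta chain, had 499 and 518 CPM with 2-D08 and 592 and 590 CPM without. Its groups did not overlap, as for 67.5% of all genes tested, and it did not pass the threshold (-0.22 ± 0.09, edgeR adjusted p = 0.0659). It passed with library size only (edgeR adjusted p = 0.0482) but not with limma on log2(TPM + 1) (-0.07, adjusted p = 0.671). It also passed without either treated replicate, but not without either untreated one. With a library left out, its log2 fold change ranged over -0.25 to -0.19. LAMC3 had 1 or 2 counts per library and was not tested.

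LAMB1 was the most abundant laminin transcript per length, at 258 and 288 TPM with 2-D08 and 272 and 300 TPM without, or 51% to 58.1% of the summed laminin TPM. With 2-D08, LAMC1 (51 and 56.4), LAMA4 (49.3 and 54.5) and LAMB3 followed with overlapping TPM. In untreated cells LAMA4 (74.7 and 77.2) came next, above LAMC1 (63.4 and 56), which lay above LAMB2 (43.1 and 34.5) and LAMB3. The 5 laminin alpha chains summed to 75.3 and 80.1 TPM with 2-D08 and 116 and 113 TPM in untreated cells. The 3 beta chains summed to 346 and 359 TPM with 2-D08 and 353 and 366 TPM without. The alpha chain share of these laminins was thus lower in both treated libraries, whereas the beta chain sums overlapped.

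The genes around these receptors were compared with the same fit. Of 31 tested adhesion adapters 1 was higher and 12 were lower, with a median log2 fold change of -0.175. Over all genes tested, 17.1% were higher and 16.9% lower, which is the share to hold beside this and the following lists. TGFB1I1 (-0.89), a paxillin relative of focal adhesions, and TNS3 (-0.57), a tensin that binds beta chain tails, were among those lower, although TNS3 did not pass with limma on log2(TPM + 1) (adjusted p = 0.0543). LPXN, another paxillin relative, was the only adapter called higher, at 128 ± 1.11 CPM with 2-D08 and 60.9 ± 4.68 CPM without (SD, n = 2 per group; 1.07 ± 0.10 SE, edgeR adjusted p = 2.67e-06). Leaving out untreated replicate 1 left 5 adapters called lower, and leaving out treated replicate 2 left 4 called higher.

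Partners of laminin in the basement membrane had 2 members higher and 5 lower of 17 tested, with a median of -0.29. SPARC (-0.68), HSPG2, which encodes perlecan (-0.74), and NTN4, a laminin-related netrin (-0.52), fell, and HSPG2 did not pass with limma on log2(TPM + 1) (adjusted p = 0.0978). COL17A1, a transmembrane collagen of hemidesmosomes, rose at low levels, to 7.59 ± 1.57 CPM with 2-D08 against 2.97 ± 0.767 CPM without (1.37 ± 0.25, edgeR adjusted p = 0.000954). The calls higher were 1 in place of 2 without either untreated replicate, and 9 were lower without treated replicate 1.

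Laminin receptors other than integrins, listed together with genes of proteins linked to them, had 1 member higher and 3 lower of 11 tested. The median was -0.16. DAG1, which encodes dystroglycan (-0.31), UTRN, its cytoskeletal linker (-0.38), and the syndecan gene SDC4 (-0.33) were lower. The syndecan gene SDC1 was higher (0.28, edgeR adjusted p = 0.044). The SDC1 call was lost in 9 of 15 other settings, among them DESeq2 (adjusted p = 0.0625) and limma-voom (adjusted p = 0.0502). None of these 4 calls held without untreated replicate 1, where the edgeR adjusted p was 0.312 for DAG1, 0.0887 for UTRN, 0.275 for SDC4 and 0.23 for SDC1. Without untreated replicate 2 their adjusted p lay between 0.0903 and 0.325, and 1 other member of the list was called lower. Without treated replicate 1, SDC1 was not called (0.17) and 6 members were called lower. The log2 fold change of UTRN was -0.22 without treated replicate 1 and -0.57 without treated replicate 2.

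Integrin ligands outside the laminins had 3 members higher and 12 lower of 23 tested, with a median of -0.30. COL1A2, a chain of the collagen bound by the ITGA1 and ITGA2 receptors, fell to 142 ± 8.33 CPM with 2-D08, against 575 ± 31.2 CPM in untreated cells (SD, n = 2 per group; -2.01 ± 0.10 SE, edgeR adjusted p = 6.35e-09). FN1, the fibronectin bound by the ITGA5 receptor, fell to 321 ± 5.59 CPM with 2-D08, against 697 ± 30.9 CPM in untreated cells (-1.12 ± 0.09, edgeR adjusted p = 9.79e-07). COL1A1 (-1.19), the partner chain of COL1A2, and ADAM12 (-0.88), a disintegrin metalloprotease, also fell. The calls higher were 1 in place of 3 without untreated replicate 1 and without untreated replicate 2.

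**Figure D4:**
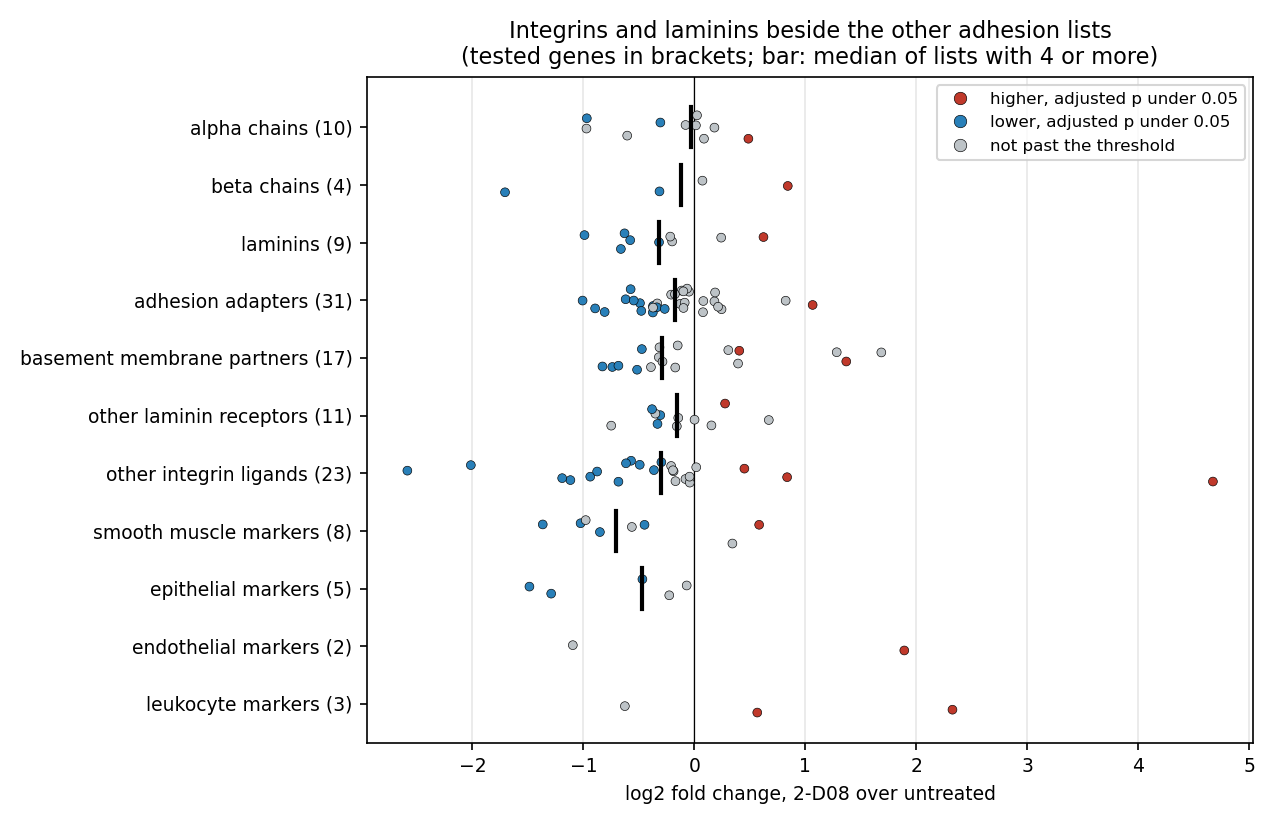
Log2 fold change of 2-D08 over untreated cells for every tested gene of each list (points; red higher, blue lower, grey not past an adjusted p of 0.05), with a black bar at the median of lists with 4 or more tested genes. The laminin median of -0.32 lies near those of the basement membrane partners (-0.29) and the other integrin ligands (-0.30), and the alpha chain median of -0.03 lies near 0; the far right point is SPP1, which had 7 and 26 counts with 2-D08 and 0 and 1 counts without.

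Marker genes of lineages that use particular chains also moved. Smooth muscle markers had 1 member higher and 4 lower of 8 tested (median -0.71), and their summed level was 781 and 833 CPM with 2-D08 and 1140 and 1150 CPM without. MYLK (-1.37), TAGLN (-0.85) and CALD1 (-0.45) fell and SMTN rose (0.58). The CALD1 call was lost without untreated replicate 2 (edgeR adjusted p = 0.0707) and with limma on log2(TPM + 1) (0.0666). Epithelial markers, which share a lineage with LAMA3, LAMB3 and ITGB4, had 0 higher and 3 lower of 5 tested (median -0.47), and summed to 274 and 226 CPM with 2-D08 and 339 and 299 CPM without. KRT19 (-1.49), KRT7 (-1.29) and KRT8 (-0.47) fell and KRT18 did not pass (-0.07), while CDH1 had 5 and 12 counts with 2-D08 and 0 and 0 without and KRT5 was at 0 throughout. The KRT8 call was lost without untreated replicate 1 (-0.30, edgeR adjusted p = 0.455), without treated replicate 2 (-0.29, 0.153), with the mostly even libraries halved (0.0523), with library size only (0.069), with DESeq2 (0.0702) and with limma on log2(TPM + 1) (0.245). Leukocyte markers had 2 higher and 0 lower of 3 tested and summed to 98.9 and 100 CPM with 2-D08 and 62.6 and 67.5 CPM without, nearly all of it CD68 (0.57). LCP1 rose at low levels (2.33), which was 0.92 and not past the threshold with limma on log2(TPM + 1) (adjusted p = 0.0725), and PTPRC, the defining marker, had 4 and 16 counts with 2-D08 and 6 and 4 without. Endothelial markers summed to 2.06 and 2.07 CPM with 2-D08 and 1.35 and 1.57 CPM without, with 1 of 2 tested called higher (PECAM1, 1.89), and VWF had 1 and 0 counts with 2-D08 and 2 and 0 without. The PECAM1 call was lost without untreated replicate 2 and without treated replicate 2, and 1 epithelial marker was called higher without untreated replicate 2. The part of these markers in the results for the integrins and laminins was not tested.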

How the data were processed

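RNA of 4 libraries (2 per group) was sequenced after ribosomal RNA removal, per the labels' protocols. The authors' processing used cutadapt 3.4, STAR 2.7.8a, DESeq2 and GRCh38, per the submitters' processing notes, and name no counting tool, strand setting or annotation. The authors deposited whole-number counts, TPM and normalized values that run on a log2 scale, and 0 columns were left without a sample. Counts were tested with edgeR 4.0.16 in R 4.3.3 (filterByExpr with a minimum count of 10, TMM, robust quasi-likelihood fit), with Benjamini-Hochberg adjustment over the 12906 genes kept of 19381. CPM is TMM-scaled, SE is the log2 fold change divided by the square root of its F statistic, and the script was tested on simulated data. A count of 0 allows up to 3 counts; such limits cover counting error only. Alternatives were RLE, unscaled library sizes, all genes unfiltered, genes averaging 5 CPM or more, DESeq2 1.42.0, limma 3.58.1 (voom, log2(TPM + 1), log2(TPM + 0.1), the deposited log2 values), a replicate block, halved counts in the mostly even libraries and each library left out. In other lists, up to 4 genes with the smallest p and at least 1 CPM were named, except 1 gene that is not reported here, and defining markers and lone counts were chosen after their values were seen. Members and lists were chosen with earlier results of these data known. Positions are from GENCODE 29 (GRCh38), to which 30 of 30 members matched; 19 share exon bases with another gene. Promoters are from RefSeq (GRCh38.p14).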

Additional observations from a re-analysis of the deposited data

How the results depend on the processing

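Over 15 other settings none of the 12 called members reversed, and 5 kept their call in all of them. Limma on log2(TPM + 1) and log2(TPM + 0.1) called 1695 and 1712 genes in place of 4376, with 0 alpha chains higher and 1 lower, 1 beta chain lower, and 0 laminins higher and 2 lower in each. With library size only, 1 alpha chain was lower. Leaving out each library in turn gave 1866 to 6077 genes, 1 to 2 alpha chains lower, 1 to 2 beta chains lower and 3 to 6 laminins lower. Members that did not pass changed sign on the 2 TPM scales: ITGA4 (-0.107 and -0.112), ITGA6 (-0.065 in both), ITGA7 (0.019 and 0.028), ITGAV (-0.094 and -0.096) and LAMA2 (0.699 and 0.882). With a library left out, ITGA4 ranged over -0.015 to 0.171, ITGA6 over -0.061 to 0.078, ITGA10 over -0.579 to 0.406, ITGAV over -0.105 to 0.131, ITGB5 over -0.05 to 0.182, LAMA2 over -0.386 to 0.043 and the marker KRT18 over -0.179 to 0.025. The cause was not tested. The labels do not say that replicate numbers pair libraries, and deviations of same-numbered libraries correlated at 0.21 across 12906 genes and at 0.4 across the 10502 averaging at least 5 CPM, which are not independent replicates. A replicate block gave 6239 genes, 3 alpha chains lower and 6 laminins lower, adding ITGA7 (edgeR adjusted p = 0.0497) and LAMB1 (0.00613). With 2 libraries per group, a lone library left in a group was assumed to vary like the other group, and members with few counts could not be tested.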
